A study of Mus musculus with 27 samples.

Results

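Dermal papilla (DP) cells form the small mesenchymal condensate at the base of the hair follicle, and 1152 of them were picked out of 28373 good-quality cells from the back skin of 2 wild-type mice at about postnatal day 32, when the follicles were in the last stage of hair growth (anagen VI, AnaVI). The wider study asked how retinoic acid, made from vitamin A, and other niche signals steer hair follicle stem cells (HFSCs), and it set skin cells beside cultured HFSCs. Each mouse gave 1 droplet library (10x Genomics 3′ chemistry), and the sort described in the study's methods enriched cells negative for CD45, CD31, CD140a and CD117, the surface products of *Ptprc*, *Pecam1*, *Pdgfra* and *Kit*. A cell was kept with at least 500 genes, at least 1000 unique molecular identifiers (UMIs, counts of captured transcripts) and under 10% mitochondrial UMIs. A kept cell was called DP when *Rspo3*, *Inhba*, *Corin*, *Ptprz1*, *Ndnf* and *Wif1* together had at least 5 UMIs, at least 3 of the 6 genes were detected, and *Krt5* and *Krt14* made up under 0.1% of its UMIs. Mouse 1 gave 542 DP cells among 14458 kept cells (3.75%, exact 95% interval 3.45% to 4.07%) and mouse 2 gave 610 among 13915 (4.38%, 4.05% to 4.74%). These intervals cover counting error only, and the share depends on the sort as well as on the skin. The series held 28729 kept cells in all, and the rule picked 0 of 262 and 0 of 94 kept cells in its 2 libraries of cultured HFSCs. The keratin limit keeps keratinocytes such as HFSCs from passing, and 4 and 0 of these cells passed the rule's other limits.

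The papilla sits inside the follicle's epithelial bulb and signals to the matrix cells that build the hair shaft and its sheaths. It is known for secreting R-spondins and Wnt inhibitors, BMPs and their antagonists and fibroblast growth factors, for answering Sonic hedgehog made by the epithelium, and for a proteoglycan-rich matrix that sets it apart from the collagen-rich dermis. *Sox2* marks papillae of some hair types and *Sox18* marks others, so DP cells of one skin sample need not be alike.

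The rule itself fixed the levels of its 6 genes, which are given as description with no test. Summed over the DP cells of each mouse and scaled to the total UMIs of that sum (CPM, the usual count scaling for sequencing depth), *Rspo3*, a secreted enhancer of Wnt signalling, stood at 1418 and 1070.3 CPM in mouse 1 and mouse 2. *Wif1*, a secreted Wnt inhibitor, stood at 2337 and 2220.2 CPM and was detected in 98.0% and 97.7% of DP cells. *Corin*, a membrane protease long used as a papilla marker, stood at 1741 and 1567 CPM, and *Inhba*, the activin A subunit, at 1403 and 952 CPM. All 6 genes were detected together in 303 and 338 of the DP cells. The median DP cell held 48 and 63 UMIs of the 6 genes, with a range from 5 to 197 in mouse 1 and from 5 to 292 in mouse 2. Just inside the rule, 9 and 20 cells had 5 or 6 UMIs of the 6 genes. Just outside it, 44 and 81 cells had 3 or 4 UMIs of at least 3 of the genes, 88 and 150 had enough UMIs but only 2 genes, and 15 and 12 passed both limits but not the keratin limit. *Lef1*, which the rule did not use, stood at 289 and 67.9 CPM in the cells just inside and 149 and 205 CPM in those just outside with 3 or 4 UMIs, so that the order of the 2 sides differed between the mice.

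The label was checked against other known DP genes and against markers of other cells. *Lef1*, the Wnt effector of the papilla, was detected in 90.0% and 85.7% of DP cells, *Fgf7* in 88.6% and 87.4%, *Hhip* in 87.6% and 83.1% and *Crabp1* in 69.9% and 61.3%. The same genes were detected in 23.9% and 33.5%, 6.22% and 9.03%, 4.31% and 3.87% and 3.83% and 3.87% of the 209 and 155 cells classed as keratinocytes (*Krt5* and *Krt14* at 1% of UMIs or more), although the keratinocytes were deeper, with a median of 7035 and 10056 UMIs against 4594 and 7255.5 in DP cells. This keratinocyte class leaves out epithelial cells with less *Krt5* and *Krt14*. The study describes LEF1 in short-lived, proliferating follicle progenitors that touch the papilla, so *Lef1* alone cannot tell DP cells from these. *Ptprc* was detected in 0.738% and 2.95% of DP cells and *Pecam1* in 1.29% and 1.48%. *Pdgfra* was not scarce, at 296 and 290.1 CPM and detected in 72.7% and 77.4% of DP cells, although the sort was against its product CD140a. Fibroblasts, defined below, likewise made up 67.0% and 77.3% of the kept cells, with *Pdgfra* detected in 56.6% and 61.1% of them. The 13 keratinocyte markers summed to 703.9 and 388.3 CPM in DP cells, 1346 and 991.2 CPM in fibroblasts and 10827 and 8957 CPM in keratinocytes. The 6 melanocyte markers summed to 419.4 and 342.8 CPM in DP cells and 583.5 and 621 CPM in fibroblasts. They summed to 64.8 and 101.9 CPM in keratinocytes and 243.9 and 477.7 CPM in contractile cells, also defined below. All 13 keratinocyte markers had UMIs in DP cells. The 8 fibroblast markers, which include the genes that define that class, summed to 8016 and 10369 CPM in DP cells. In fibroblasts they summed to 21442 and 26440 CPM. The 9 markers of vessel wall and sheath cells summed to 555.8 and 858.4 CPM in DP cells. They summed to 98.4 and 135.4 CPM in fibroblasts and 5429 and 4596 CPM in contractile cells. Scrublet, a caller of droplets that hold more than 1 cell, marked 65 (11.99%) and 40 (6.56%) of the DP cells. The 2 libraries shared 46 barcodes among kept cells, and none was a DP cell in both.

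Both comparison classes came from the same 2 mice. Fibroblasts, 20434 cells, were cells outside the DP and contractile classes with at least 10 UMIs over *Col1a1*, *Col1a2*, *Lum*, *Dpt* and *Dcn*, at least 3 of these detected and low keratin. Contractile cells, 824 in number, were non-DP cells with at least 5 UMIs over *Acta2*, *Tagln*, *Myh11*, *Cnn1*, *Mylk* and *Rgs5*, at least 3 detected and low keratin, limits that vessel wall and dermal sheath cells can pass. UMIs were summed by mouse and class, which gave 3328796 and 5577951 UMIs for DP cells, 102968944 and 127827992 for fibroblasts and 3828985 and 6389021 for contractile cells. The classes were not sharp. Of the DP cells, 331 and 577 also passed the fibroblast limits, and 25 and 64 passed the contractile limits. Of the fibroblasts, 35.3% and 40.7% had under 50 UMIs of the 5 defining genes, and in those cells the epithelial gene *Epcam* was detected in 62.6% and 37.5% and *Pdgfra* in 15.1% and 21.9%. Fibroblasts at 50 UMIs or more had *Epcam* in 13.1% and 14.6% and *Pdgfra* in 79.2% and 88.0%. For this reason every DP difference was recomputed with tight gates, chosen after seeing the data: at least 10 UMIs and 4 genes for DP and contractile cells, at least 50 UMIs and 4 genes for fibroblasts, and no cell marked by Scrublet, which left 429 and 459 DP cells.

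**Figure D1:**
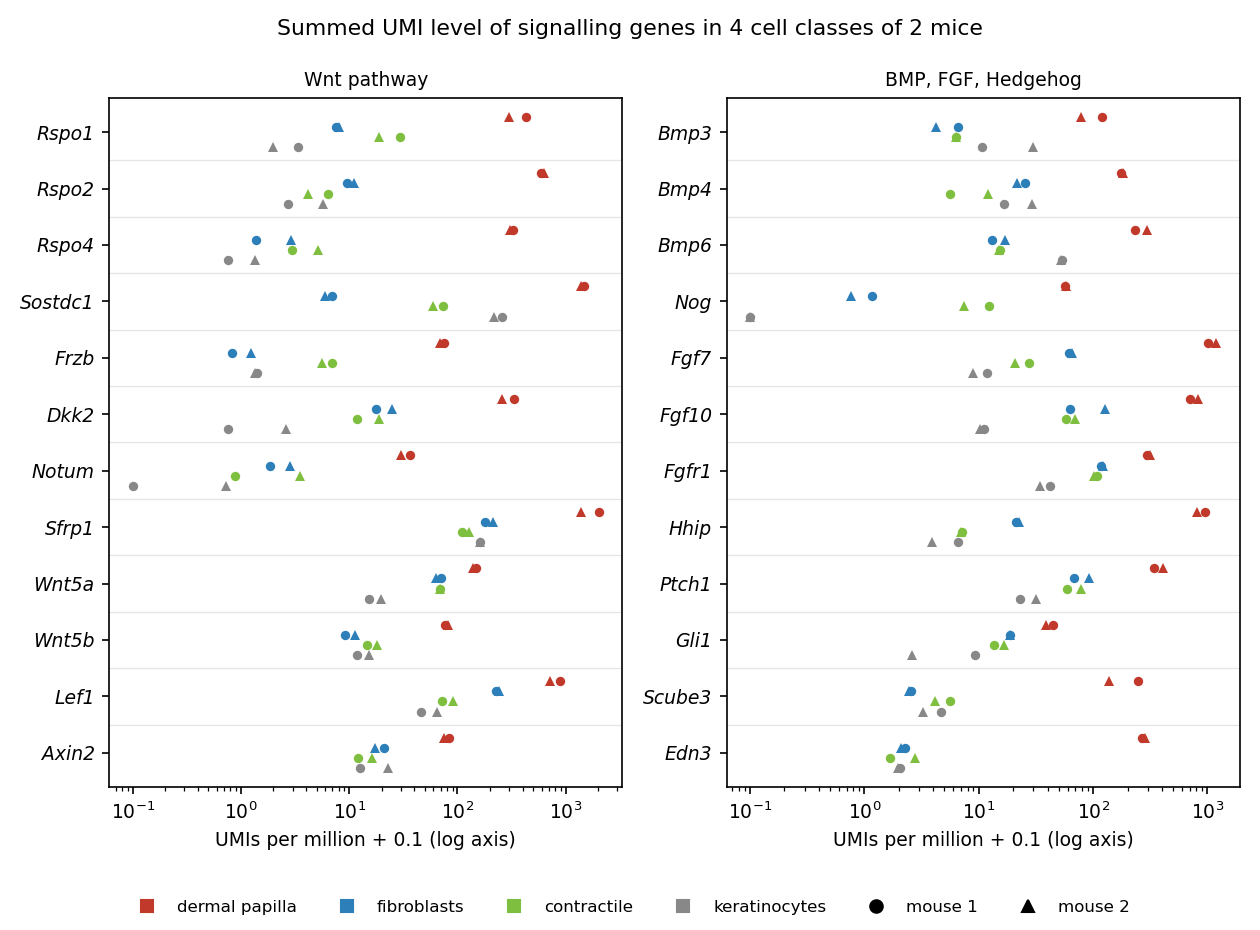
Summed UMI levels of secreted signalling genes in 4 cell classes, in CPM plus 0.1 on a log axis. Circles are mouse 1 and triangles mouse 2, and colours mark DP cells, fibroblasts, contractile cells and keratinocytes. *Sostdc1* in DP cells, at 1461 and 1374 CPM, lay far to the right of fibroblasts, at 6.85 and 5.90 CPM.

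The comparison of DP cells with fibroblasts asks what sets the papilla apart from the dermis around it. Differences were tested with edgeR's quasi-likelihood test over 14477 genes and called at a Benjamini-Hochberg adjusted p under 0.01 with a log2 fold change beyond 1 in size. The mice are the replicates, 2 in each class, so p-values rest on the spread between 2 animals. The classes were cut from expression in the same cells, so that a gene that goes with the gate genes was bound to differ to some extent. In DP cells 1074 genes were higher (7.42% of those tested) and 424 were lower (2.93%), so that 10.3% were called. With the mouse as a block, which pairs the classes of 1 animal, 1357 were higher (9.37%) and 905 lower (6.25%). With tight gates, over 13128 genes, 1230 were higher (9.37%) and 1081 lower (8.23%). Leaving out the DP sum of a mouse cut the calls over all genes, the lower ones most. A call lost in that way below need not be particular to its gene or list.

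Of 36 genes known for DP expression that the rule did not use, 31 were higher in DP cells and 0 were lower, with a median log2 fold change of 3.30 against -0.012 over all genes tested. The list was drawn up with earlier results of these data known. Beside these 0 lower calls, 0 of the 36 were lower at an unadjusted p under 0.05, and DESeq2 called 32 higher and 0 lower. Among those that did not pass were *Prdm1*, *Prom1*, *Igfbp3* and *Tbx18*. *Prdm1*, the repressor Blimp1, stood at 36.0 and 31.6 CPM in DP cells and 11.4 and 15.3 CPM in fibroblasts (log2 fold change 1.25 ± 0.25, where ± gives the SE throughout, edgeR adjusted p = 0.0112), and *Prdm1* and *Prom1* were called with tight gates. Leaving out the DP sum of mouse 1 left 27 higher calls and leaving out that of mouse 2 left 26. *Enpp2*, which makes lysophosphatidic acid, was at 890.4 and 752 CPM in DP cells and 23.9 and 38.2 in fibroblasts, a log2 fold change of 4.64 ± 0.31. *Gldn*, gliomedin, was at 234 and 288 CPM against 1.37 and 2.50, a log2 fold change of 6.99 ± 0.45. The DP values of both mice lay above both fibroblast values for each of these genes. The share of such genes over all genes tested is not given here, so this separation is not read as a result.

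Genes that tune Wnt signalling from outside the cell were among the widest differences. *Sostdc1* (GRCm38 chr12:36314139-36318452), a secreted inhibitor of both BMP and Wnt, stood at 1461 and 1374 CPM in the DP cells of mouse 1 and mouse 2 and at 6.85 and 5.90 CPM in fibroblasts, a log2 fold change of 7.72 ± 0.23 (edgeR, adjusted p = 7.72e-06). The R-spondins *Rspo1*, *Rspo2* and *Rspo4*, relatives of the rule gene *Rspo3* that keep Wnt receptors on the surface, were all higher. *Rspo2* was at 587 and 626 CPM against 9.36 and 10.99 (log2 fold change 5.82 ± 0.23). *Rspo1* was at 432 and 298 CPM against 7.46 and 8.00 (5.48 ± 0.30), and *Rspo4* at 326 and 302 CPM against 1.28 and 2.82 (7.17 ± 0.42). Several inhibitors were higher as well. *Sfrp1*, which binds Wnt ligands, was at 2029 and 1391 CPM against 178 and 211, *Frzb* at 74.5 and 69.2 CPM against 0.728 and 1.14, and *Dkk2*, which blocks the LRP coreceptors, at 334 and 257 CPM against 17.5 and 25.0. *Notum*, an enzyme that strips the lipid from Wnt ligands, was at 36.0 and 29.8 CPM against 1.76 and 2.71 (log2 fold change 3.79 ± 0.41). In all, 9 of 12 tested enhancers and inhibitors were higher and 0 were lower (median log2 fold change 3.75), with DESeq2 calling 0 lower and 1 lower at an unadjusted p under 0.05. *Dkk3*, *Sfrp2* and *Sfrp4* did not pass, and *Sfrp4* stood at 54.4 and 27.4 CPM in DP cells against 170.3 and 100.4 in fibroblasts and was called lower with the block.

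The Wnt ligands themselves were mixed. Of 13 tested, 2 were higher and 2 lower, with a median log2 fold change of -0.66. *Wnt5a* and *Wnt5b*, ligands that act mostly outside the β-catenin route, were the higher pair. *Wnt5b* was at 77.2 and 81.4 CPM in DP cells and 9.03 and 11.1 in fibroblasts (log2 fold change 2.90 ± 0.17), and *Wnt5a* at 149 and 140.2 CPM against 70.9 and 63.4 (1.02 ± 0.14), a call lost without either DP sum. *Wnt10b* (2.70 and 2.51 CPM against 9.22 and 6.84) and *Wnt4* (29.4 and 25.3 against 77.2 and 56.1) were lower. The *Wnt4* call was lost with tight gates (log2 fold change -0.65), and without either DP sum no Wnt ligand was called lower. Among 23 receptors and targets 6 were higher and 0 lower (DESeq2 5 and 2, and 6 lower at an unadjusted p under 0.05), with a median of 0.04. They were the feedback genes *Nkd1* (151 and 119.6 CPM against 11.8 and 12.5), *Nkd2* (167 and 152 against 6.37 and 7.58) and *Axin2* (83.5 and 74.8 against 20.7 and 17.4), the effectors *Lef1* and *Tcf7*, and the receptor *Fzd3*. *Lef1* was at 879 and 717 CPM in DP cells and 228 and 242 CPM in fibroblasts, a log2 fold change of 1.68 ± 0.18 that became 3.57 with tight gates. *Fzd3* and *Tcf7* lost their calls without either DP sum, and with the block *Fzd4* and *Ror1* were lower.

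BMP and TGF-β ligands and antagonists gave 10 higher and 1 lower of 24 tested, with a median log2 fold change of 1.11. *Bmp4*, a ligand through which the papilla acts on hair matrix cells, was at 175 and 182 CPM in DP cells and 25.5 and 21.4 in fibroblasts (log2 fold change 2.85 ± 0.26, edgeR adjusted p = 4.99e-04). *Bmp6* was at 232 and 297 CPM against 13.0 and 16.8 (4.07 ± 0.20), and *Bmp3*, which opposes other BMPs, at 119.6 and 78.0 CPM against 6.55 and 4.15 (4.12 ± 0.31). The antagonist *Nog*, noggin, was at 56.2 and 57.9 CPM against 1.07 and 0.657, a log2 fold change of 5.97 ± 0.33. The ligands and their antagonist were thus both higher in DP cells. *Ltbp1*, which holds latent TGF-β in the matrix, was at 808 and 965 CPM against 108 and 122 (2.87 ± 0.21). *Chrdl1*, chordin-like 1, was the lower gene, at 24.6 and 14.2 CPM against 78.6 and 66.2 (-2.01 ± 0.27). Leaving out a DP sum left 6 higher calls (mouse 1) or 7 (mouse 2), and the *Chrdl1* call was lost without mouse 2. With the block *Bmp5* was lower too. Among 19 receptors and targets of these pathways 2 were higher and 0 lower (DESeq2 1 and 1, and 3 lower at an unadjusted p under 0.05): *Smad6*, an inhibitor induced by BMP (49.0 and 52.2 CPM against 22.6 and 24.8), and *Tgfbr1* (167 and 227 against 62.7 and 86.6), and both calls were lost without either DP sum. With the block *Tgfbr2* was lower.

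*Fgf7* and *Fgf10*, growth factors that act on the epithelial receptor FGFR2b, led the FGF genes, of which 5 of 15 were higher and 0 lower (DESeq2 5 and 0, and 3 lower at an unadjusted p under 0.05), with a median of 0.68. *Fgf7* was at 1007 and 1197 CPM in DP cells and 61.7 and 65.7 in fibroblasts (log2 fold change 4.03 ± 0.21), and *Fgf10* at 703 and 821 CPM against 62.5 and 127 (2.92 ± 0.33). *Spry1* (192 and 114 CPM against 19.7 and 27.3) and *Spry4* (44.2 and 36.0 against 7.45 and 9.43), inhibitors induced by FGF signalling, were higher too. *Fgfr1*, at 296 and 312 CPM against 118 and 121, lost its call with tight gates (log2 fold change 0.90) and without either DP sum.

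Hedgehog genes gave 4 higher and 0 lower of 13 tested (DESeq2 5 and 1, and 2 lower at an unadjusted p under 0.05), with a median of 0.56. The receptor and target *Ptch1* was at 343 and 404 CPM in DP cells and 68.0 and 92.5 in fibroblasts (log2 fold change 2.14 ± 0.21), and the target and ligand trap *Hhip* at 944 and 818 CPM against 20.9 and 22.3 (5.27 ± 0.18). *Scube3*, a secreted protein of a family that helps to release hedgehog ligand, was at 249 and 137 CPM against 2.47 and 2.35, a log2 fold change of 6.24 ± 0.34. *Gli1*, the transcription factor most used as a readout of the pathway, was at 44.2 and 38.5 CPM against 18.8 and 18.5 (1.06 ± 0.15), a call lost without either DP sum, and with the block *Cdon*, a hedgehog coreceptor, was lower. The Notch targets *Hey2* (47.2 and 33.2 CPM against 0.214 and 0.368, log2 fold change 6.99 ± 0.35) and *Hey1* (6.91 and 10.0 against 1.42 and 1.88, a call lost without either DP sum) were higher and *Nrarp* (10.8 and 8.43 against 23.6 and 19.9) lower among 11 Notch genes, and *Nrarp* was no longer called with tight gates or without the DP sum of either mouse, the fibroblast sum of mouse 1 or the contractile sum of mouse 1.

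Of 22 other secreted factors 4 were higher and 3 lower, with a median log2 fold change of -0.56. Without either DP sum 2 were higher and 0 lower, and tight gates gave 3 higher and 9 lower. *Edn3*, endothelin 3, a factor that acts on melanocytes, stood at 269 and 283 CPM in DP cells and 2.19 and 1.97 in fibroblasts (log2 fold change 6.97 ± 0.20, edgeR adjusted p = 7.72e-06), and its receptor gene *Ednrb* was itself higher in DP cells, at 214 and 218 CPM against 20.2 and 22.9 (3.25 ± 0.22). The melanocyte markers in these cells are given above, and their part in the *Ednrb* level was not tested. *Mdk*, midkine, was at 391.7 and 274 CPM against 53.2 and 58.4. Its relative *Ptn* (248 and 233 CPM against 528 and 470.3), the chemokine *Cxcl12* (59.8 and 60.2 against 137 and 147) and *Pdgfd* (58.0 and 73.5 against 149 and 133) were lower. *Kitl*, the ligand of the melanocyte receptor Kit, did not pass, at 88.3 and 83.0 CPM against 125 and 205 (adjusted p = 0.0223). With the block 6 were lower, *Kitl* and *Edn1* among them. Among 16 growth factor and hormone receptors 4 were higher and 0 lower (DESeq2 4 and 2, and 4 lower at an unadjusted p under 0.05). The leptin receptor *Lepr* was at 321 and 304 CPM against 23.4 and 22.5 (log2 fold change 3.69 ± 0.15) and the neurotrophin receptor *Ntrk3* at 233 and 206 CPM against 12.02 and 16.4 (3.87 ± 0.23). With the block *Egfr* was lower.

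**Figure D2:**
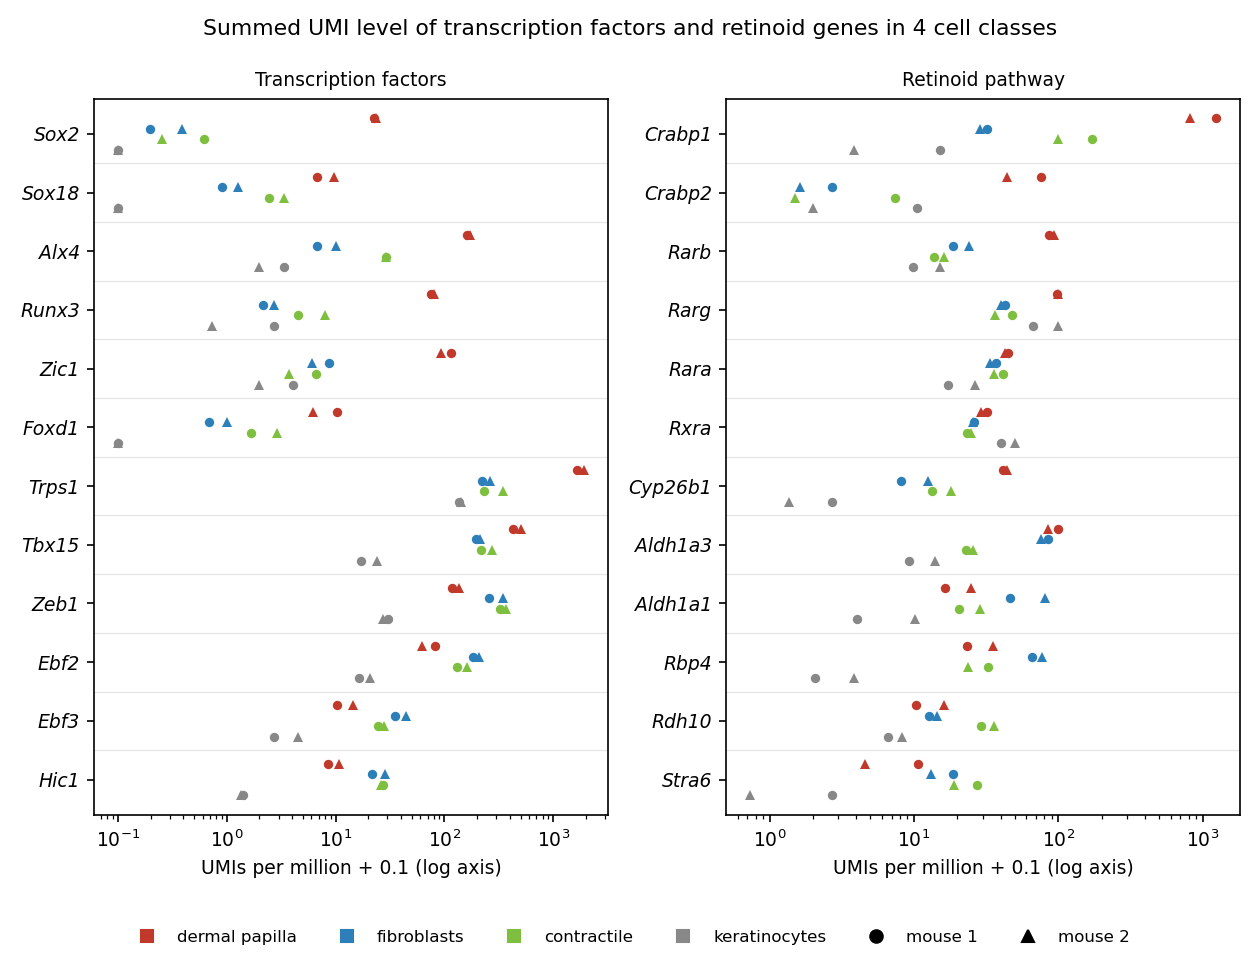
Summed UMI levels of transcription factors and of retinoid pathway genes in 4 cell classes, in CPM plus 0.1 on a log axis, with mouse 1 as circles and mouse 2 as triangles. *Alx4* and *Runx3* in DP cells (160.1 and 173 and 75.1 and 79.8 CPM) stood apart from the other classes, whereas *Aldh1a3* in DP cells (100.04 and 85.3 CPM) lay close to fibroblasts (84.5 and 75.9 CPM).

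Transcription factors known from skin mesenchyme gave 14 higher and 4 lower of 39 tested, with a median log2 fold change of 0.58. *Alx4*, a homeodomain factor of the papilla, stood at 160.1 and 173 CPM in DP cells and 6.604 and 9.95 in fibroblasts (log2 fold change 4.25 ± 0.23). *Runx3* was at 75.1 and 79.8 CPM against 2.07 and 2.62 (4.96 ± 0.24), and *Zic1* at 114 and 92.1 CPM against 8.65 and 6.01 (3.73 ± 0.29). *Trps1*, a GATA-type repressor whose loss affects hair, was at 1662 and 1932 CPM against 223 and 263, a log2 fold change of 2.81 ± 0.23 that became 4.39 with tight gates. *En1* (84.7 and 93.6 CPM against 19.7 and 19.5) and *Foxd1* (10.2 and 6.10 against 0.592 and 0.900) were higher as well. *Sox2* rested on few UMIs, at 22.5 and 23.3 CPM against 0.0971 and 0.289, and so did *Sox18*, at 6.61 and 9.50 CPM against 0.806 and 1.18, whose call was lost without the DP sum of mouse 2. The lower factors were *Zeb1* (117 and 136 CPM against 256 and 348), *Ebf2* (81.7 and 62.0 against 184 and 206), *Ebf3* (10.2 and 14.3 against 34.9 and 44.7) and *Hic1* (8.41 and 10.6 against 21.7 and 28.3), whereas *Zeb2*, the relative of *Zeb1*, was higher at 1357 and 1257 CPM against 373 and 466. *Tbx15* (431 and 506 CPM against 195 and 210.3) and *Prrx2* (138 and 131 against 58.0 and 49.7) lost their calls with tight gates, under which the counts were 12 higher and 8 lower. Without the DP sum of either mouse they were 7 and 1.

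Retinoid genes bear on the question of the study. Of 19 tested, 5 were higher in DP cells and 1 was lower, with a median log2 fold change of 0.12. *Crabp1* (GRCm38 chr9:54764748-54773110), which binds retinoic acid in the cytoplasm, stood at 1247 and 819 CPM in DP cells and 31.96 and 28.5 in fibroblasts (log2 fold change 5.01 ± 0.36, edgeR adjusted p = 1.86e-04). *Crabp2*, which carries retinoic acid to its receptors, was at 75.4 and 44.1 CPM against 2.60 and 1.53 (4.76 ± 0.56), a call lost without the DP sum of mouse 1. The receptor *Rarb*, itself a retinoic acid target, was at 85.6 and 93.0 CPM against 18.6 and 23.9 (1.99 ± 0.17), and *Rarg* at 97.9 and 99.1 CPM against 42.9 and 39.8 (1.17 ± 0.17). *Cyp26b1*, which breaks retinoic acid down, was at 41.2 and 44.1 CPM against 8.10 and 12.5 (1.97 ± 0.24). The synthesis genes did not pass the test. *Aldh1a3*, a retinaldehyde dehydrogenase, was at 100.04 and 85.3 CPM against 84.5 and 75.9 (adjusted p = 0.556), and its relative *Aldh1a1* was at 16.2 and 24.7 CPM against 46.3 and 80.6 (adjusted p = 0.0105). *Rbp4*, the plasma carrier of retinol, was the lower gene, at 23.1 and 35.0 CPM against 65.6 and 76.7 (-1.36 ± 0.24). With the mouse as a block 5 retinoid genes were lower, *Aldh1a1* among them, and without the DP sums of mouse 1 and mouse 2 in turn 2 and 3 genes were higher and 0 lower. *Crabp1* and *Rarb* kept their calls in both cases, and *Rarg*, *Cyp26b1* and *Rbp4* lost theirs.

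**Figure D3:**
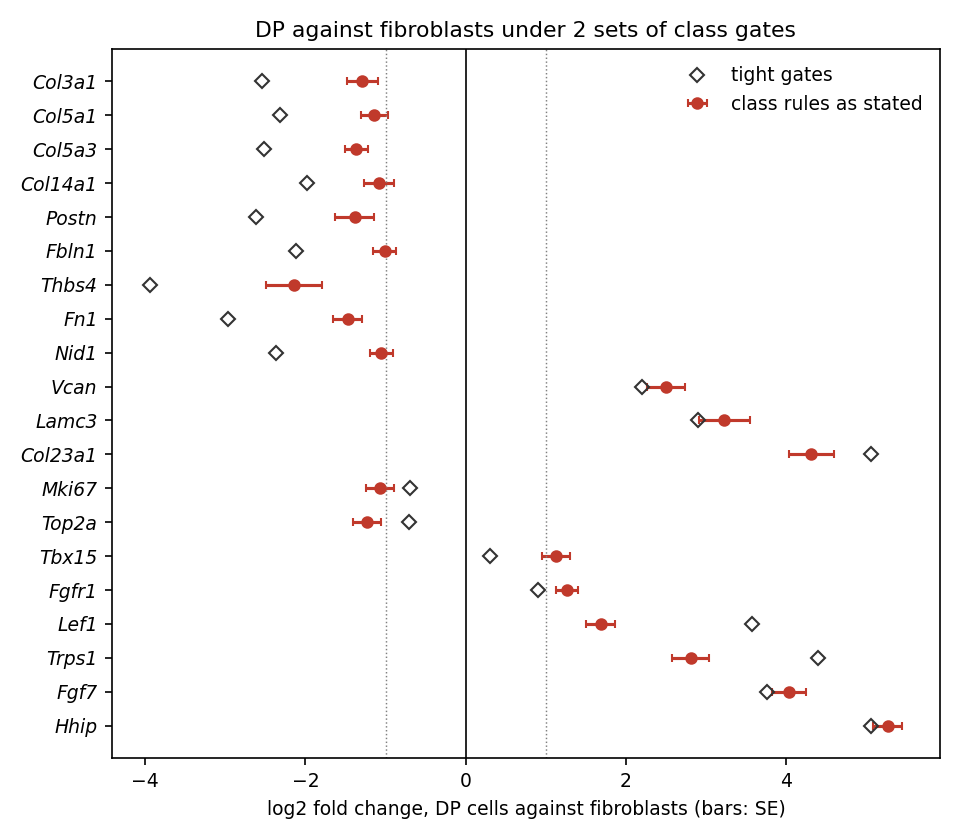
Log2 fold changes of 20 genes in DP cells against fibroblasts under the class rules as stated (filled circles, bars are the SE) and under tight gates (open diamonds), with dotted lines at the fold limit. *Col3a1* moved from -1.29 to -2.54, and *Tbx15* from 1.13 to 0.30. The tight gates took only fibroblasts with at least 50 UMIs of 5 matrix genes.

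Collagen-rich matrix went the other way. The fibroblast class was itself defined by 5 genes of the matrix list (*Col1a1*, *Col1a2*, *Lum*, *Dpt* and *Dcn*), which are left out here. Of the other 19 matrix genes, 0 were higher and 7 were lower, with a median log2 fold change of -0.91 (0 were higher by DESeq2 or at an unadjusted p under 0.05). *Col3a1* stood at 4539 and 5293 CPM in DP cells and 9973 and 12742 in fibroblasts (log2 fold change -1.29 ± 0.19), and *Postn*, periostin, at 488 and 695 CPM against 1232 and 1689 (-1.39 ± 0.25). *Col5a3* was at 94.9 and 108 CPM against 239 and 255 and *Thbs4* at 4.81 and 7.53 CPM against 19.8 and 33.4. With tight gates 16 of the 19 were lower. Those gates asked for at least 50 UMIs of the 5 defining matrix genes in fibroblasts. Matrix genes that go with these 5 were thus bound to stand higher in fibroblasts. This holds to some extent for the 7 calls above as well, since the class rule asked for at least 10 UMIs of the same 5 genes. Without the DP sum of either mouse the 7 calls were lost, and lower calls over all genes were few as well. In a list of 28 basement membrane and papilla matrix genes 3 were higher and 3 lower. *Vcan*, versican, the large proteoglycan of the papilla, was at 1219 and 1423 CPM against 176 and 266 (log2 fold change 2.50 ± 0.23). *Col23a1*, a transmembrane collagen, was at 507 and 656 CPM against 21.0 and 34.3 (4.31 ± 0.28) and *Lamc3*, a laminin chain, at 54.7 and 61.3 CPM against 3.91 and 7.78 (3.23 ± 0.32). *Fn1*, fibronectin, was lower at 594 and 533 CPM against 1532 and 1427 (-1.47 ± 0.18), as were *Nid1* and *Col4a4*, and without either DP sum these 3 were not called.

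Cell cycle genes gave 0 higher and 7 lower of 16 tested (median log2 fold change -1.09; 0 higher by DESeq2 or at an unadjusted p under 0.05). *Mki67* was at 82.0 and 102 CPM in DP cells and 184 and 181 in fibroblasts, and *Top2a* at 133 and 136 CPM against 339 and 258. In DP cells 67.0% and 72.1% of the *Mki67* UMIs lay in the 24 and 41 cells that held 3 or more of them. Among the clusters of DP cells described below, cluster 8 held 133 and 302 *Mki67* UMIs (299 and 418 CPM). That cluster was led by inner root sheath genes, and Scrublet marked 52.7% of it. In the other clusters *Mki67* stood between 23.7 and 89.1 CPM. The part of cluster 8 in the DP levels was not tested. With the mouse as a block 11 were lower and with tight gates 1 was. Without the DP sum of either mouse the 7 calls were lost, and lower calls over all genes were few as well. The fibroblast class with under 50 UMIs of its defining genes, in which *Epcam* was detected more often, drops out under tight gates, and its part in these levels was not tested.

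By rank, the highest gene in DP cells against fibroblasts was *Shisa9*. The product modulates AMPA receptors, and the gene stood at 272 and 284 CPM against 0.913 and 1.06 (log2 fold change 8.05 ± 0.21). *Dcc*, a netrin receptor, was at 2003 and 2469 CPM against 11.5 and 14.2 (7.37 ± 0.24), *Lingo2* at 1025 and 1285 CPM against 4.88 and 6.49 (7.58 ± 0.38), and *Grid1*, a glutamate receptor subunit of the delta type, at 421 and 437 CPM against 1.77 and 2.31 (7.63 ± 0.23). *Mc5r*, a melanocortin receptor, was at 142 and 142 CPM against 0.563 and 1.00 (7.40 ± 0.34). The other 10 of the 15 highest genes were *Sostdc1*, *Gabrg3*, *Lrrtm3*, *Mir155hg*, *Snap91*, *Kcnq3*, *Rspo4*, *Gldn*, *Edn3* and *Csrnp3*, with log2 fold changes between 6.93 and 7.72. The ranking took only genes whose DP and fibroblast values did not overlap, so their separation is not a result. All of these genes kept their calls with tight gates. At the low end stood *Angptl1* (14.1 and 11.5 CPM against 48.5 and 55.6, log2 fold change -2.12 ± 0.20), the hyaluronan synthase *Has1* (42.1 and 39.3 against 146 and 154, -1.97 ± 0.19), and *Cyp7b1*, *Cthrc1*, *Serpina3n*, *Nova1*, *Adamtsl1*, *Atf3* and *Chrdl1*, between -2.01 and -1.82. *Cst6*, a cystatin of epithelial barriers and the lowest of all at 19.5 and 8.43 CPM against 106 and 81.7 (-2.89 ± 0.41), was not called with tight gates (-1.08). Of the low genes, only *Adamtsl1* kept its call without each of the 6 sums in turn.

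The second comparison asks what sets DP cells apart from contractile mesenchyme. Against contractile cells 551 genes were higher in DP cells (3.81% of 14477) and 420 lower (2.9%), so that 6.71% were called. With the mouse as a block 762 were higher (5.26%) and 689 lower (4.76%), and with tight gates 994 (7.57%) and 1014 (7.72%). This comparison shares its DP sums with the one above, so the 2 are set side by side and not counted as separate support. Of the 36 DP genes outside the rule 27 were higher and 0 lower (median log2 fold change 2.76 against 0.01 over all genes; DESeq2 30 and 0; 1 lower at an unadjusted p under 0.05). With the block *Tbx18* was lower. Without any 1 DP or contractile sum between 19 and 21 were higher. *Hhip* was at 7.05 and 6.89 CPM in contractile cells (log2 fold change 6.95 ± 0.20), *Fgf7* at 27.7 and 20.7 (5.49 ± 0.23) and *Lef1* at 72.1 and 90.9 (3.26 ± 0.19). *Itga8*, an integrin chain of the papilla, was not called, at 91.9 and 85.5 CPM in DP cells and 56.2 and 62.0 in contractile cells (0.55 ± 0.35). It was also on the marker list of vessel wall and sheath cells.

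The Wnt modulators separated DP cells from contractile cells as well, with 10 of 12 higher and 0 lower (median log2 fold change 3.80; 0 lower by DESeq2 or at an unadjusted p under 0.05). *Rspo2* was at 6.27 and 4.07 CPM in contractile cells (log2 fold change 6.89 ± 0.26), *Sostdc1* at 73.1 and 59.8 (4.39 ± 0.20) and *Sfrp1* at 109.7 and 129 (3.81 ± 0.25). BMP and TGF-β ligands and antagonists gave 8 higher and 1 lower of 24, with *Bmp4* at 5.48 and 12.1 CPM in contractile cells (4.26 ± 0.30) and *Bmp5* lower. Without the DP sums of mouse 1 and mouse 2 and the contractile sums of mouse 1 and mouse 2 in turn, 6, 6, 5 and 4 were higher and 0 lower, so that *Bmp5* was not called in any of these 4 fits. Hedgehog genes gave 4 higher and 0 lower of 13 (DESeq2 6 and 1; 1 lower at an unadjusted p under 0.05), and with the block *Gas1* was lower. Retinoid genes gave 5 higher, among them *Crabp1* (170.3 and 98.9 CPM, 2.91 ± 0.33), *Rarb* (13.6 and 16.1 CPM, 2.55 ± 0.19) and, unlike against fibroblasts, *Aldh1a3* (23.0 and 25.5 CPM, 1.90 ± 0.16, with tight gates not called), and 1 lower. Without either DP sum or the contractile sum of mouse 2, 3 retinoid genes were higher. With the block 3 retinoid genes were lower, *Stra6* and *Rdh10* among them. The difference between the 2 contrasts was not tested.

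Of 11 Notch genes 4 were lower and 1, *Hey2*, was higher in DP cells than in contractile cells. *Notch3*, the mural Notch receptor, was at 24.6 and 21.5 CPM in DP cells against 108 and 131 in contractile cells (log2 fold change -2.41 ± 0.21) and was among the lower genes. Leaving out a DP or contractile sum left 1 or 2 lower Notch genes, and of these 4 fits *Hey2* kept its call only in that without the DP sum of mouse 2. Of 22 secreted factors 7 were lower and 1, *Edn3*, higher, with 3 and 2 lower without the DP sums of mouse 1 and mouse 2. *Pdgfa* was at 15.3 and 24.6 CPM against 129 and 127 (-2.69 ± 0.22) and *Bdnf* at 10.51 and 8.61 CPM against 48.1 and 37.9 (-2.21 ± 0.24). Without the DP sum of mouse 2 *Bdnf* was not called. The lowest by rank were *Sncg* (0.601 and 0.717 CPM against 61.9 and 80.1, log2 fold change -6.75 ± 0.62), *Il17b*, *Gucy1a1* and *Tinagl1*, and *Sncg* lost its call without the DP sum of mouse 2. The highest were *Shisa9* (8.28 ± 0.26), *Gabrg3* (7.91 ± 0.48), *Csrnp3* (7.86 ± 0.47) and *Mir155hg* (7.70 ± 0.21).

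*Sox2* was detected in 60 of 542 (11.1%) and 79 of 610 (13.0%) DP cells and *Sox18* in 18 (3.32%) and 42 (6.89%). No UMI of either was found in the 209 and 155 keratinocytes, which limits only the share of keratinocytes with a UMI, to 1.44% and 1.94% at 3 counts of the total. Both were detected in 2 and 3 cells. The *Sox2*-detected cells were deeper, with medians of 4973.5 and 8060 UMIs against 4521 and 6958 in the rest. DP cells with and without a *Sox2* UMI were summed by mouse and compared over 11792 genes. Only 6 genes were higher (0.0509%) and 4 lower (0.0339%; 0.0848% in all), *Sox2* itself, which made the split, among the higher. *Edn3* (GRCm38 chr2:174760619-174784042) stood at 588 and 842 CPM in *Sox2*-detected cells and 232 and 191 in the others (log2 fold change 1.78 ± 0.23, edgeR adjusted p = 0.00869). *Sostdc1* was at 3276 and 3867 CPM against 1251 and 966 (1.70 ± 0.22) and *Nrg1*, neuregulin 1, at 197 and 217 CPM against 71.7 and 80.1 (1.46 ± 0.20). *Lypd1* was lower, at 11.6 and 6.37 CPM against 90.8 and 67.4 (-3.27 ± 0.39). Genes named by rank in this split were required not to overlap between the 2 sides, so their separation is not a result.

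The other 3 lower genes of the *Sox2* split were the haemoglobins *Hbb-bs*, *Hbb-bt* and *Hba-a1*, at 98.4 and 61.2 CPM of *Hbb-bs* against 1424 and 1307. They lay in few cells: the 5 highest cells held 90.6% and 93.7% of the haemoglobin UMIs, and the 2 and 3 cells with 100 or more were all without a *Sox2* UMI. Without those cells, an alternative added after seeing the data, 1 gene was higher, *Sox2*, and 0 were lower, against 402 higher and 478 lower at an unadjusted p under 0.05. *Edn3* then had a log2 fold change of 1.78 (adjusted p = 0.0117) and *Sostdc1* of 1.70 (adjusted p = 0.0117), whereas *Hbb-bs* had -0.37 (adjusted p = 0.844). With the mouse as a block 30 genes were higher (0.254%) and 24 lower (0.204%), with tight gates 4 (0.0384%) and 7 (0.0671%). *Edn3* and *Sostdc1* were among the higher with the block and were not called with tight gates. Without the *Sox2*-detected sum of either mouse *Edn3*, *Sostdc1*, *Nrg1* and *Lypd1* were not called. The retinoid list gave 0 calls in this split by edgeR, with 3 genes higher and 2 lower at an unadjusted p under 0.05, 1 higher by DESeq2, and *Crabp1* and *Crabp2* higher with the block. The 6 melanocyte markers gave 0 calls by edgeR (median log2 fold change -1.69; 4 lower at an unadjusted p under 0.05 and 1 by DESeq2).

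**Figure D4:**
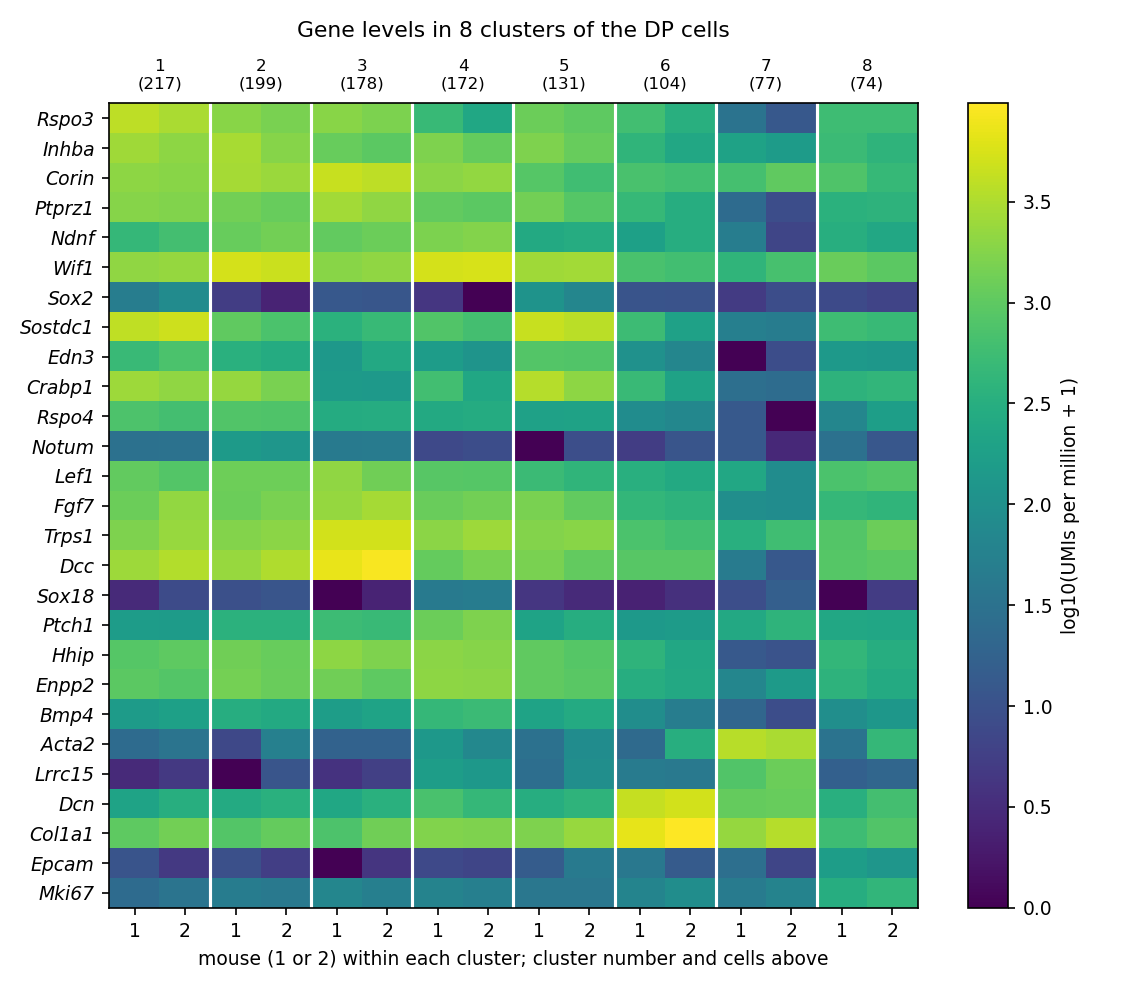
Summed UMI levels of selected genes in 8 clusters of the DP cells, given as description, with mouse 1 and mouse 2 shown apart. Clusters 1 and 5 held the most *Sox2* (47.4 and 83.7 and 110.1 and 67.5 CPM), and cluster 4 the most *Sox18* (43.3 and 45.9 CPM).

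Clustering of the 1152 cells gave 8 groups, each with cells of both mice. They are described here without a test because the clusters were formed from the same counts. Clusters 1 and 5 held 217 and 131 cells and had *Sostdc1* at 4045 and 4901 CPM and 4413 and 3763 CPM and *Edn3* at 509.6 and 714 and 834 and 792 CPM, with *Sox2* detected in 16.4% and 37.4% and 44.3% and 27.1% of their cells. Cluster 2, 199 cells, had the most *Notum* (147 and 123 CPM) and *Rspo4* (802 and 779 CPM), and had *Sox2* in 1.96% and 1.03% of its cells. Cluster 3, 178 cells, had the most *Lef1* (2137 and 1333 CPM), *Trps1* (5119.9 and 5177 CPM) and *Dcc* (7036 and 8778 CPM) and little *Crabp1* (146 and 143 CPM). Cluster 4, 172 cells, had the most *Ptch1* (1225 and 1640.5 CPM), *Enpp2* (2044 and 1994 CPM) and *Bmp4* (456 and 514 CPM), and *Sox18* in 11.8% and 17.7% of its cells, but *Rspo3* at only 479 and 239 CPM. *Crabp1* stood highest in clusters 5 and 1, at 3482 and 2068 CPM and 2517 and 2122 CPM, with cluster 5 above cluster 1 in mouse 1 but not in mouse 2. The leading genes of cluster 5 by fold were, however, *Hp*, *Wfdc2*, *Areg*, *Igfbp3* and *Krt19*, with the immune cell genes *Cd74* and *Lyz2* also among its first 10, and those of cluster 2 held haemoglobins beside *Notum*.

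The other 3 clusters went in part against the label, and the DP sums of the main fits include them. Their cells were deeper than the median DP cell, at 4594 and 7255.5 UMIs. Cluster 6 had medians of 11716 and 20520 UMIs, cluster 7 of 7927 and 9798.5 and cluster 8 of 13547 and 17327.5. They thus weighed more in the DP sums than their cell numbers show. Cluster 6, 104 cells, had *Dcn* at 4395 and 5117 CPM and *Col1a1* at 6849 and 9699 CPM, and Scrublet marked 52.9% of it. Cluster 8, 74 cells, was led by genes of the inner root sheath and of dividing cells (*Krt71*, *Krt25*, *Ube2c*), had *Mki67* at 299 and 418 CPM and *Epcam* in 55.9% and 65.0% of its cells, and was marked to 52.7%. Cluster 7, 25 and 52 cells, had *Acta2* at 3557 and 2981 CPM and *Lrrc15* at 805 and 1213 CPM beside *Rspo3* at 31.9 and 11.5 CPM, and 64 of its 77 cells also passed the contractile limits, although Scrublet marked only 2.60%. It is left unnamed. Of the rule genes it had *Corin* at 645 and 1014 CPM, *Wif1* at 402 and 668 CPM and *Inhba* at 195 and 154 CPM. Of the 4 contractile genes that no class rule used, 3 were higher in DP cells than in fibroblasts and 0 lower (DESeq2 0 lower; 0 lower at an unadjusted p under 0.05). Tight gates left 2 of these calls, and leaving out the DP sums of mouse 1 and mouse 2 left 2 and 1. *Actg2* was at 33.3 and 45.0 CPM against 0.369 and 0.626 (log2 fold change 6.203 ± 0.31, with tight gates 5.02), and *Myl9*, at 319.6 and 279 CPM against 61.9 and 31.0 (2.61 ± 0.34), lost its call without either DP sum. The fibroblast class left out every cell that passed the contractile limits, whereas the DP class kept 25 and 64 such cells. Contractile genes were thus bound to be higher in DP cells to some extent. The part of cluster 7 in these values was not tested.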

How the data were processed

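Of the series, the 2 single cell libraries of AnaVI back skin were analysed; the 2 cultured libraries served only to apply the rule. The values are UMI counts per gene and barcode as deposited by the authors: the matrix headers name Cell Ranger 7.0.0, the submitters' processing notes name version 7.0.1, and the build is mm10 (GRCm38). Whether intronic reads were counted is not given in the sources used here. The authors' later removal of ambient RNA and doublets (SoupX, DoubletFinder) is not part of these counts. Gene positions are from GENCODE vM21 on GRCm38.

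Cells were filtered and classed as given above, with 139504947 and 159290929 UMIs in kept cells. Scrublet ran through scanpy 1.11.5. UMIs were summed per mouse and class (DP, fibroblasts, contractile; 6 sums in 1 fit with 3 residual degrees of freedom; 4 sums and 2 for the *Sox2* split) and tested with edgeR 4.0.16 (TMM, filterByExpr, glmQLFTest; R 4.3.3); DESeq2 1.42.0 was an alternative. The thresholds are those of the study's pseudobulk test. The fits were first run on simulated counts with known changes, drawn with no mouse effect. Calls there were scored at an adjusted p under 0.05 with no fold limit. The simulation thus does not cover the thresholds used here or the pairing by mouse. The classes of a mouse come from 1 animal and library, so the mouse pairs the sums: deviations from class means correlated at 0.42 (fibroblasts), 0.23 (contractile) and 0.19 (*Sox2* split) over genes. Clusters used 1500 variable genes, 20 components, 15 neighbours and Leiden resolution 0.6.

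Members and gene lists were chosen with earlier results of these data known. Named genes are list members plus, in each comparison, the called genes ranked by log2 fold change, 15 from the top and 10 from the bottom (10 and 10 for the *Sox2* split). Ranked genes needed a mean of 50 CPM in the higher class and no overlap between classes. Class rule genes, Gm and Rik models and mitochondrial genes were passed over. Some genes are not reported here. *Hp*, *Wfdc2*, *Areg*, *Krt19*, *Cd74*, *Lyz2*, *Lrrc15*, *Krt71*, *Krt25* and *Ube2c* were named from the clusters after their values were seen. Alternatives were another tool, normalization, filter, threshold, block, gates, cell quality, doublets, thinning and leaving out each sum.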

Additional observations from a re-analysis of the deposited data

How the results depend on the processing

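No called list or rank gene turned direction under the alternatives run. Of 138 list and rank genes called against fibroblasts, 138 kept their call with the mouse as a replicate block, 118 of 137 with tight gates, and 76 and 72 without the DP sums of mouse 1 and mouse 2. Against contractile cells 125 of 125 kept it with the block, 115 with tight gates and 77 to 80 without a DP or contractile sum. Genes lower than in fibroblasts numbered 730 by DESeq2, 1260 with no filter on low counts, 905 with the block, 665 with a stricter DP gate, 672 without Scrublet doublets, 694 after thinning to 3000 UMIs a cell, 709 with fibroblasts at 50 or more UMIs and 1081 with tight gates. An adjusted p under 0.05 with no fold limit gave 2165 higher and 1716 lower. Leaving out 1 sum gave 474 to 1091 higher and 22 to 582 lower, both lowest without the DP sum of mouse 2, and without that of mouse 1 there were 556 and 55. The share of higher calls was 71.7% as reported, 54.9% with no filter, 60.0% with the block and 53.2% with tight gates.

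Against contractile cells, genes lower numbered 702 by DESeq2 and 689 with the block. Against 551 higher and 420 lower as reported, lower calls were the more numerous with a stricter contractile gate (604 and 644), after thinning (479 and 489) and with tight gates (994 and 1014). There were 994 higher and 904 lower with no filter and 1312 and 1213 at an adjusted p under 0.05. Leaving out 1 sum gave 210 to 641 higher and 112 to 566 lower, the higher genes fewest without the contractile sum of mouse 2 and the lower fewest without the DP sum of mouse 1, with at most 268 and 147 without any DP or contractile sum.

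In the *Sox2* split, higher and lower genes numbered 14 and 13 by DESeq2, 52 and 94 with no filter, 30 and 24 with the block, 18 and 15 at an adjusted p under 0.05, and 1 and 0 without the cells of 100 or more haemoglobin UMIs. Against 6 and 4 as reported, lower genes were also the more numerous with a stricter DP gate (1 and 4), stricter cell quality (2 and 4), without doublets (1 and 4) and with tight gates (4 and 7). After thinning there were 10 and 6. Leaving out 1 sum gave 3 to 36 and 3 to 50, the most without a *Sox2*-undetected sum. A split at 2 *Sox2* UMIs was not run, since mouse 1 had 12 such cells. The DP share of mouse 1 was 2.92% with stricter cell quality and 3.35% with a stricter DP gate, and that of mouse 2 was 4.63% and 3.57%. Causes of these shifts were not tested. Tight gates, fibroblasts at 50 or more UMIs and removal of haemoglobin-rich cells were added after seeing the data. A lone sum left in a class was assumed to vary like the other classes. Depth limits low genes: 3 counts are 0.901 and 0.538 CPM in DP cells, and 8.68 and 3.82 CPM in *Sox2*-detected DP cells.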
